A study of Mus musculus with 24 samples.

Results

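The kidney epithelial transcription factors Hnf4a, Pax2, Pax8, Emx1, Lhx1, Tfcp2l1, Tfap2b and Esrrg were followed across kidney, left ventricle and skeletal muscle of young adult and old mice. The 8 genes were chosen by symbol, as factors known from nephron and collecting duct epithelium, with earlier results of these data known. Each was found once among the 55401 genes of the deposited count table. A higher level in kidney was therefore built into the choice of genes and is described below as a size, not as a finding. All mice were C57BL6/J. They comprised 4 mice at 16.5 weeks (females 14 and 15, males 19 and 20) and 4 mice at 86 weeks (females 11 and 12, males 14 and 17). Each mouse gave 1 library from left ventricle, 1 from skeletal muscle and 1 from kidney, so that 24 libraries of total RNA were made after removal of ribosomal RNA. Male 14 at 86 weeks and female 14 at 16.5 weeks are different animals. Which muscle and which part of the kidney were taken is not given in the sources used here. No treatment or genetic change is recorded for any group.

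These factors act at different points of the nephron. Pax2, Pax8 and Lhx1 are needed to form the nephric duct and the early nephron, Hnf4a drives the differentiation of proximal tubule cells, Tfap2b and Emx1 are known from the distal nephron, Tfcp2l1 shapes the intercalated and principal cells of the collecting duct, and Esrrg is an orphan nuclear receptor that controls genes of mitochondrial energy metabolism. Esrrg is also known from heart muscle, where it acts beside its paralogue Esrra and the coactivator Ppargc1a. On GRCm38.p6, in the GENCODE M21 annotation, all 8 are protein-coding: Hnf4a at chr2:163506808-163572910 on the plus strand, Pax8 at chr2:24420560-24475599 on the minus strand, Pax2 at chr19:44756045-44837871 (plus), Emx1 at chr6:85187438-85204462 (plus) and Lhx1 at chr11:84518284-84525535 (minus). Tfcp2l1 (chr1:118627945-118685168), Tfap2b (chr1:19208914-19238576) and Esrrg (chr1:187608791-188214885) all lie on the plus strand of chromosome 1.

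Library totals ranged from 52602585 to 103797551 counts. Mitochondrial genes took 21.9% to 25.1% of counts in kidney, 25.8% to 29.4% in left ventricle and 14% to 17.4% in skeletal muscle. The labelled tissues carried their defining markers: the summed level of 6 cardiomyocyte genes was 49020 ± 6348 CPM (counts scaled to an equal effective library size; SD, n = 8) in left ventricle and 14.3 ± 10.5 in kidney, the sum of 6 skeletal muscle fibre genes was 151700 ± 18530 in muscle and 781 ± 93.4 in left ventricle, and the sum of 10 proximal tubule genes was 13160 ± 1535 in kidney and 103.8 ± 34.1 in muscle. In muscle the cardiomyocyte sum was 102 to 672 CPM. Among its genes Actc1 ranged there from 42.3 to 655 CPM, highest in a female at 16.5 weeks. The muscle of male 17 at 86 weeks stood apart in Myh6, the alpha myosin heavy chain of heart muscle, at 342 CPM against a median of 6.96 over the 8 muscles. Among the muscles it also had the highest Tnnt2 (56.0 CPM, median 4.94) and Tnni3 (19.1, median 1.58). Its Acta1 was the lowest (7063, median 13070). Its scaling factor was 1.04, against 0.730 to 0.821 in the other muscles. The kidney of female 11 at 86 weeks had the largest scaling factor of all 24 libraries, 1.51, against 1.11 to 1.32 in the other kidneys. These are bulk samples, so fewer cells of a type and less RNA per cell cannot be told apart in any value below.

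The promoters of the genes whose levels the results turn on are printed here so that the sequence can be read beside the values. They run from 250 bases before to 50 bases after a start site, 5′ to 3′ along the gene, and were taken from RefSeq on GRCm38.p6. All 8 genes matched, with 14 promoters among the 32851 of that table. Capitals mark matches, on either strand, to the AP-2 motif bound by Tfap2b and its paralogues (GCCNNNGGC) and to a homeodomain motif (TAATTA). Hnf4a is shown with both start sites because it was the most abundant member in kidney and differed between the sexes there, Pax8 because it too differed between the sexes in kidney, Tfcp2l1 for its difference between male and female muscle, and Esrrg for its level in left ventricle. Of the 4 Esrrg promoters in the table the 1 with a match is printed, and the other 3 held none of the motifs searched.
Hnf4a, chr2:163546905-163547204, plus strand: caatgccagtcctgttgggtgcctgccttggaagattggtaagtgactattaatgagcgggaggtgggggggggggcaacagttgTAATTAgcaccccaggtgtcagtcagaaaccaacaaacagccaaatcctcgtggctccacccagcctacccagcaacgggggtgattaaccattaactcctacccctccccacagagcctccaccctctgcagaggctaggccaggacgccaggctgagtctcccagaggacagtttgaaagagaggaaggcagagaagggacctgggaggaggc
Hnf4a, chr2:163506607-163506906, plus strand: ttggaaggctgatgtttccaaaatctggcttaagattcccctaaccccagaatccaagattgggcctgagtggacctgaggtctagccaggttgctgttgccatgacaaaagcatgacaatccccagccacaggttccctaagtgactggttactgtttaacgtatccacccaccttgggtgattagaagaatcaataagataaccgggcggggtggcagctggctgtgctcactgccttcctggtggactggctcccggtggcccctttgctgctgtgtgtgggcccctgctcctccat
Pax8, chr2:24475550-24475849, minus strand: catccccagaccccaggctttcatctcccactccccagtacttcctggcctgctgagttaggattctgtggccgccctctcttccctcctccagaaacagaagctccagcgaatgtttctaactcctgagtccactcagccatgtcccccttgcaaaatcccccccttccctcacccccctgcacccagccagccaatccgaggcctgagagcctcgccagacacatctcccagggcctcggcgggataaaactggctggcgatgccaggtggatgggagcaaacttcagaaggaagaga
Tfcp2l1, chr1:118627695-118627994, plus strand: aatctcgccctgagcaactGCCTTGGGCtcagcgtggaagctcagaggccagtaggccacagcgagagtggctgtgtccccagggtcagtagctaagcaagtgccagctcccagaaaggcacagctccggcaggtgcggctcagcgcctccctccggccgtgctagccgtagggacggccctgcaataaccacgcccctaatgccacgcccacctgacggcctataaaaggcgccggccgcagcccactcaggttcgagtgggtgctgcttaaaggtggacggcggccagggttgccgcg
Esrrg, chr1:187651991-187652290, plus strand: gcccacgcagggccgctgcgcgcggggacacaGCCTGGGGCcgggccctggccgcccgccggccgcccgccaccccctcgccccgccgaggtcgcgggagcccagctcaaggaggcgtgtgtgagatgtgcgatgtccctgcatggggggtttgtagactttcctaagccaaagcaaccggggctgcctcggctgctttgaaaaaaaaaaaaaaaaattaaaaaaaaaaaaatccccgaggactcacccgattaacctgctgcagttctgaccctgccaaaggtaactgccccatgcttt

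The first Hnf4a promoter held the homeodomain motif at positions -165 to -160, counted from 0 at the start site. The AP-2 motif, which reads the same on both strands, was found in 4 of the 14 promoters, those of Tfcp2l1 (-231 to -223) and Esrrg (-218 to -210) printed here and 1 each of Emx1 and Pax2, against 16.6% of all promoters. TAATTA was found in 5.29% of all promoters and, among these genes, in that of Hnf4a. No match shared bases with another. Hnf4a's other promoter and that of Pax8 held none of the motifs. Motifs for Hnf4a itself (CAAAGTCCA, in 0.475% of all promoters), for oestrogen-related receptors (TCAAGGTCA, 0.423%), for paired domains (GTCACGC, 2.09%) and for the CP2 family of Tfcp2l1 (3.44%) had no match in the 14 windows, which says only that such letters are not there.

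In kidney, Hnf4a and Tfcp2l1 stood far above the other 6 genes. Per kilobase of exon, the scale on which genes can be compared, the order was Hnf4a at 109 ± 20.2 CPM per kb (SD, n = 8), Tfcp2l1 at 46.6 ± 9.73, Esrrg at 12.01 ± 1.29, Emx1 at 9.45 ± 1.202, Pax8 at 8.93 ± 1.77, Tfap2b at 5.40 ± 0.732, Pax2 at 4.07 ± 0.452 and Lhx1 at 3.81 ± 0.487. Emx1 and Pax8 differed by less than their spread, as did Pax2 and Lhx1, while each other step in this order was larger than 1 SD of either gene. As a description of how genes that these tissues are not known for score in such libraries, 1100 genes of olfactory receptors were measured alike. Their 95th percentile in kidney was 0.243 CPM per kb, and all 8 factors lay above it.

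Outside the kidney the order changed, since Esrrg led in left ventricle and, in the males, Tfcp2l1 led in skeletal muscle. In left ventricle Esrrg stood at 7.21 ± 0.840 CPM per kb (SD, n = 8), and the other 7 genes lay between 0.266 ± 0.0642 (Tfap2b) and 0.593 ± 0.148 (Emx1). Within those 7, in the order Emx1, Pax2, Hnf4a, Tfcp2l1, Pax8, Lhx1 and Tfap2b, no neighbours differed by more than their spread. In skeletal muscle Tfcp2l1 had the highest mean, 2.52 ± 1.73, followed by Esrrg at 0.821 ± 0.244, Emx1 at 0.763 ± 0.207, Hnf4a at 0.743 ± 0.320, Pax2 at 0.667 ± 0.0562, Pax8 at 0.470 ± 0.104, Lhx1 at 0.443 ± 0.0907 and Tfap2b at 0.328 ± 0.0515. The lead of Tfcp2l1 in muscle came from the males, at 4.03 ± 0.899 (SD, n = 4), against 1.013 ± 0.315 in the females. The range of the females overlapped those of Esrrg, Emx1 and Hnf4a. The only steps larger than the spread of both neighbours were from Pax2 to Pax8 and from Lhx1 to Tfap2b. Tfap2b was the 1 gene at or below that percentile, in left ventricle (0.287) and in muscle (0.336).

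**Figure D1:**
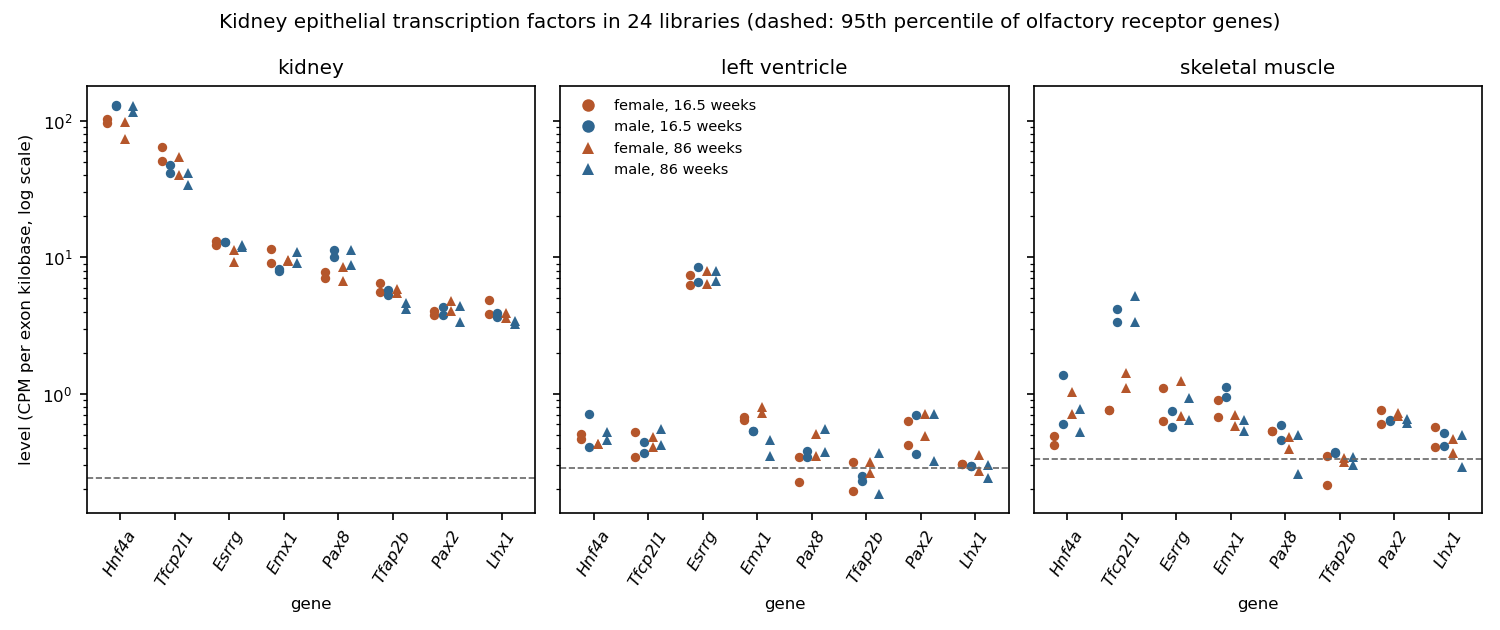
Level of each of the 8 transcription factor genes in every library (CPM per kilobase of exon, log scale) in kidney, left ventricle and skeletal muscle, 8 libraries per tissue; colour gives the sex, the symbol gives the age, and the dashed line is the 95th percentile of the olfactory receptor genes. Every kidney library lies above every left ventricle and muscle library for each gene, Esrrg in left ventricle (mean 7.21) stands apart from the other genes there, and in muscle Tfcp2l1 does so in the 4 males (3.33 to 5.25) but not in the 4 females (0.763 to 1.42).

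Hnf4a, the nuclear receptor of the proximal tubule, measured 496, 461, 624 and 622 CPM in the kidneys of mice 14, 15, 19 and 20 at 16.5 weeks. At 86 weeks it measured 353, 469, 563 and 616 CPM in mice 11, 12, 14 and 17. It ranged from 1.98 to 3.42 CPM in left ventricle and from 2.03 to 6.64 in muscle. The lowest kidney was thus female 11 at 86 weeks, the library with the largest scaling factor, the highest ventricle was male 20 at 16.5 weeks, and the highest muscle was male 19 at 16.5 weeks. That ventricle also had the highest summed thick ascending limb markers (17.4 CPM, against 5.11 to 8.65 in the other ventricles), proximal tubule markers (201, against 103 to 181) and distal convoluted tubule markers (24.1, against 16.4 to 21.5), and their part in its Hnf4a value was not tested. The last 2 sums are uneven outside the kidney. Aqp1 stood at 32.8% of its kidney mean in left ventricle, and the other proximal tubule genes at 1.1% or less. Among distal convoluted tubule genes Wnk4 had the highest ventricle mean, 10.6 CPM, against 5.25 for Slc12a3. The mean of Hnf4a in left ventricle was 0.453% of that in kidney, and within single mice the kidney level was 171 to 315 times the ventricle level. In a fit of all 24 libraries the kidney exceeded left ventricle by 7.77 on the log2 scale (SE 0.22) and muscle by 7.18 (SE 0.22).

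The paired-box genes Pax2 and Pax8 showed smaller gaps between tissues. Pax2 ranged from 18.2 to 26.0 CPM in kidney, from 1.75 to 3.88 in left ventricle and from 3.26 to 4.12 in muscle. Pax8 measured 47.1, 42.8, 61.3 and 68.0 CPM in the kidneys of mice 14, 15, 19 and 20 at 16.5 weeks and 40.5, 51.6, 53.5 and 68.1 in mice 11, 12, 14 and 17 at 86 weeks. Both genes were higher in every kidney than in any other library. The log2 difference between kidney and left ventricle was 2.91 (SE 0.15) for Pax2, the smallest of the 7 genes other than Esrrg, and 4.54 (SE 0.15) for Pax8. Left ventricle and muscle held 13.4% and 16.4% of the kidney's mean Pax2 level, the largest shares among the genes apart from Esrrg in left ventricle. Per kilobase of exon Pax2 averaged 4.07 CPM in kidney, 0.544 in ventricle and 0.667 in muscle. The highest olfactory receptor gene stood at 0.888, 1.19 and 0.689 in these tissues. In ventricle Pax2 lay between Emx1 (0.593) and Hnf4a (0.493), so its shares go with a low kidney level.

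Lhx1 and Emx1, both homeobox genes, were low in all tissues outside the kidney. Lhx1 ranged from 13.2 to 19.8 CPM in kidney, from 0.980 to 1.45 in left ventricle and from 1.18 to 2.33 in muscle. Emx1 ranged from 17.4 to 25.0, from 0.770 to 1.75 and from 1.18 to 2.47 CPM in the same tissues. Kidney exceeded left ventricle by 3.67 (SE 0.12) on the log2 scale for Lhx1 and by 4.00 (SE 0.14) for Emx1. Tfap2b, an AP-2 factor, ranged from 26.3 to 40.9 CPM in kidney, from 1.18 to 2.35 in left ventricle and from 1.37 to 2.39 in muscle, a difference of 4.34 (SE 0.14) between kidney and ventricle.

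Tfcp2l1, the CP2 family factor of the collecting duct, measured 608, 481, 445 and 388 CPM in the kidneys of mice 14, 15, 19 and 20 at 16.5 weeks and 377, 508, 317 and 390 in mice 11, 12, 14 and 17 at 86 weeks. It lay between 3.25 and 5.20 CPM in every left ventricle. In muscle it measured 7.23, 7.20, 39.4 and 31.5 CPM in mice 14, 15, 19 and 20 and 13.4, 10.4, 49.5 and 31.8 in mice 11, 12, 14 and 17. The muscle libraries therefore fell into a low group of 4 females and a high group of 4 males, which is taken up below. The kidney exceeded left ventricle by 6.74 (SE 0.35) and muscle by 4.41 (SE 0.32) on the log2 scale, and within single mice the kidney level was 6.4 to 84.1 times the muscle level.

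Esrrg was the member shared with the heart. It measured 81.0, 76.0, 80.7 and 80.9 CPM in the kidneys of mice 14, 15, 19 and 20 and 57.1, 70.4, 73.9 and 76.3 in mice 11, 12, 14 and 17. The left ventricles of the same mice held 46.4, 38.8, 41.1 and 52.4 CPM at 16.5 weeks and 49.3, 39.4, 49.2 and 41.4 at 86 weeks. Muscle held 3.54 to 7.66 CPM. The 3 ranges did not overlap, although the gap between the lowest kidney and the highest ventricle was small, and the mean in left ventricle was 60% of that in kidney. Kidney exceeded left ventricle by 0.73 (SE 0.13) and muscle by 3.87 (SE 0.15) on the log2 scale, and ventricle exceeded muscle by 3.14 (SE 0.14). Within single mice the ventricle level was 5.14 to 14.8 times the muscle level.

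All 8 genes passed the threshold for kidney against left ventricle, where 34.7% of all genes tested did, and for kidney against skeletal muscle, where 45.3% did (edgeR's quasi-likelihood test, Benjamini-Hochberg adjusted p under 0.05, all 45182 genes tested). Their largest adjusted p was 2.97e-05, for Esrrg between kidney and left ventricle. All 8 were also higher in every kidney library than in any left ventricle or muscle library, as were 12.2% and 15.1% of all genes in the same comparisons.

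Left ventricle against skeletal muscle set Esrrg apart from the rest. The choice of kidney factors gave this comparison no direction as such, but the genes were chosen with earlier results of these data known. Here 4 of the 8 genes passed the test, against 27.1% of all genes: Esrrg was higher in ventricle (log2 3.14, adjusted p = 2.45e-16 by edgeR), and Tfcp2l1 (-2.34, SE 0.30, adjusted p = 3.19e-07), Lhx1 (-0.58, SE 0.11, adjusted p = 1.95e-04) and Hnf4a (-0.59, SE 0.18, adjusted p = 0.0114) were lower. For Tfcp2l1 the value of -2.34 averages unlike sexes. The ventricles held 3.25 to 5.20 CPM, female muscles 7.20 to 13.4 and male muscles 31.5 to 49.5. Pax2, Pax8, Emx1 and Tfap2b had differences of -0.30 to -0.35 that did not pass. The median over all genes was -0.12, and the olfactory receptor median was 0.155 CPM per kb in ventricle and 0.180 in muscle. With the mouse, which gave all 3 tissues, as a block, Pax2 passed too (-0.34, adjusted p = 0.0407 in edgeR). The call for Hnf4a was lost without either of 2 mice. Without male 17 at 86 weeks, whose muscle was high in Myh6, all 4 calls held, with Esrrg at 3.17 and Tfcp2l1 at -2.29, and Pax8 (-0.44, adjusted p = 0.00873 in edgeR) and Tfap2b (-0.37, adjusted p = 0.0496) passed as well. Without male 19 at 16.5 weeks, whose muscle had the highest Hnf4a, the difference was -0.30 (adjusted p = 0.146 by edgeR), and without female 11 at 86 weeks it was -0.47 (adjusted p = 0.0575). That muscle of male 19 also had the highest summed levels of proximal tubule markers (176 CPM, against 58.9 to 119 in the other muscles) and of thick ascending limb markers (37.0, against 7.80 to 17.9), and the part of these in the Hnf4a value was not tested. In muscle Aqp1 stood at 19.6% of its kidney mean, and the other proximal tubule genes at 0.854% or less. When only genes of at least 1 CPM in 4 libraries were tested, all 8 genes passed. Under that filter, which tests fewer genes, 12730 genes passed in all, so the share of 27.1% does not apply to it.

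The 26 other transcription factors listed for nephron or collecting duct epithelium gave a similar tissue pattern with more exceptions. They too were chosen as factors of kidney epithelium, so a higher level in kidney was built into the list and is not a finding. Of these, 23 were higher and none lower in kidney than in left ventricle, where 34.7% of all genes were called. The median log2 difference was 2.62, against -0.0977 over all genes. Examples are Pou3f3 (4.80, SE 0.17), a POU factor of the loop of Henle, and Maf (3.36, SE 0.11), a bZIP factor. The remaining 3, Irx3, Nr3c2 and Prdm16, did not pass. Against muscle, where 45.3% of all genes were called, 23 were higher and 2 lower, the latter being Maf (-0.58, SE 0.10) and Dmrt2. Between ventricle and muscle 8 of the 26 were higher and 8 lower, where 27.1% of all genes were called. Ppara, the fatty acid sensor among these factors, was higher in ventricle than in muscle by 2.88 (SE 0.12), while Maf (-3.94, SE 0.12) was lower there.

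Paralogues of the 8 genes did not follow the kidney pattern as a group. Of 24, 5 were higher and 5 lower in kidney than in left ventricle (median -0.193), and 7 were higher and 15 lower than in muscle (median -0.527, against -0.24 over all genes). The shares of all genes called were 34.7% and 45.3%, and the calls against left ventricle were not far from that share. Emx2, the paralogue of Emx1 needed for urogenital development, averaged 18.9 CPM in kidney, 1.09 in left ventricle and 2.16 in muscle. Hnf4g averaged 7.09, 0.465 and 0.543 CPM, and was higher in kidney than in ventricle by 3.93 (SE 0.18). Tfcp2, the broadly expressed relative of Tfcp2l1, averaged 37.2, 14.95 and 14.2 CPM. Emx2 and Hnf4g also stand in the list of other nephron factors.

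The other oestrogen-related receptors, Esrra and Esrrb, were also higher in ventricle than in muscle. Esrra averaged 68.2 CPM in kidney, 77.7 in left ventricle and 40.7 in muscle. Esrrb averaged 19.4, 19.98 and 3.38 CPM. Ventricle exceeded muscle by 0.94 (SE 0.10) for Esrra and by 2.57 (SE 0.11) for Esrrb on the log2 scale, and neither passed the test between kidney and ventricle (-0.19, SE 0.10, and -0.06, SE 0.10). Whether they differ from Esrrg in this was not tested. Their coactivator Ppargc1a averaged 76.8, 84.8 and 29.3 CPM, and Perm1, a muscle protein that works with these receptors, 5.03, 181 and 48.0 CPM.

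Among 12 cofactors, 6 were higher and 3 lower in kidney than in left ventricle (median 0.27, against -0.0977 over all genes, of which 34.7% were called). Between ventricle and muscle 9 were higher and 2 lower in ventricle (median 0.592, against -0.12 over all genes, of which 27.1% were called), among the higher ones Ppargc1a (1.53, SE 0.09) and Ppargc1b (1.53, SE 0.10). Kctd15, a repressor of AP-2 factors, was the most different cofactor by p between ventricle and muscle (-3.86, SE 0.12). Of 8 energy metabolism genes known as targets of oestrogen-related receptors, all 8 were lower in kidney than in left ventricle (median -4.23, against -0.0977 over all genes). In ventricle 7 were higher than in muscle (median 1.74, against -0.12 over all genes). The shares of all genes called were again 34.7% and 27.1%. Fabp3 and Cpt1b are known from muscle, so their lower level in kidney was built into the choice. Fabp3, which carries fatty acids in muscle cells, had a kidney minus ventricle difference of -6.04 on the log2 scale (SE 0.14), and Cpt1b, the muscle form of the mitochondrial fatty acid gate, one of -4.32 (SE 0.13). Acadm, a mitochondrial dehydrogenase of medium-chain fatty acids, was the 1 target higher in kidney than in muscle (2.13, SE 0.13).

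None of the 8 genes was called between 16.5 and 86 weeks in kidney. The 4 old against 4 young kidneys gave 0 called genes among the 8 (0 by DESeq2, and 0 at an unadjusted p under 0.05, which 7.96% of all genes had), where 0.112% of all 44572 genes were called. The ages did not separate for any of the 8, as they did for 3.53% of all genes. Old minus young differences ranged from -0.23 (SE 0.11) for Tfcp2l1 to 0.14 (SE 0.11) for Emx1 on the log2 scale. Hnf4a averaged 551 ± 84.7 CPM (SD, n = 4) at 16.5 weeks, and its difference was -0.11 (SE 0.10), with the ages overlapping. Esrrg, at -0.17 (SE 0.09), was lowest in the old female 11, and Lhx1 differed by -0.16 (SE 0.10), Tfap2b by -0.18 (SE 0.09), Pax2 by 0.10 (SE 0.10) and Pax8 by 0.01 (SE 0.09). Tfcp2l1, Tfap2b and Esrrg had unadjusted p of 0.0553, 0.0692 and 0.0731 in edgeR's quasi-likelihood test, and the smallest adjusted p of the 8, for Tfcp2l1, was 0.639.

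In left ventricle 0 of the 8 genes passed for age (0 by DESeq2), against 0.0741% of all genes, and for none did the ages separate without overlap, against 2.1%. The exception at an unadjusted p under 0.05, which 3.37% of all genes had, was Pax8, with 1.38 to 2.33 CPM at 16.5 weeks and 2.11 to 3.36 at 86 weeks. Its difference was 0.47 (SE 0.20); it is far from the threshold after adjustment over all genes in edgeR's test (0.9997). Esrrg, the abundant member of this tissue, differed by 0.01 (SE 0.12) between the ages, a change smaller than the spread among mice of 1 age.

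In skeletal muscle 0 of the 8 genes passed for age (0 by DESeq2), against 0.0183% of all genes, and 2 had an unadjusted p under 0.05, against 5.51%. The ages overlapped for all 8, while they did not for 2.72% of all genes. Emx1 measured 1.98, 1.47, 2.47 and 2.06 CPM in mice 14, 15, 19 and 20 and 1.27, 1.52, 1.18 and 1.40 in mice 11, 12, 14 and 17, a difference of -0.52 (SE 0.20, adjusted p = 0.844 in edgeR). The ages overlapped only in that the old female 12 lay above the young female 15. Tfcp2l1 differed by 0.48 (SE 0.15, adjusted p = 0.696 in edgeR) once sex was in the model. Within the females both old muscles (13.4 and 10.4 CPM) lay above both young ones (7.23 and 7.20), and within the males the ages overlapped. A test of whether the age change differed between the 3 tissues called 0 of the 8 genes (0 by DESeq2), against 0.0155% of all genes, with unadjusted p under 0.05 for Pax8 and Emx1, against 3.72%.

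Among the related lists, 1 transcription factor changed with age. Foxi1, the forkhead factor of intercalated cells, fell in old kidney from 14.1 ± 5.18 to 7.60 ± 1.71 CPM (SD, n = 4), a log2 difference of -0.80 (SE 0.12, adjusted p = 0.0272 in edgeR), and Slc26a4, the pendrin transporter of the same cells, fell with it (-0.80, SE 0.11, adjusted p = 0.0180). Both calls were lost without the filter on low counts (adjusted p = 0.186 and 0.178) and without sex in the model (0.924 and 0.515). That for Foxi1 was also lost without any 1 of the mice 14, 15 or 19 at 16.5 weeks or 11, 12 or 17 at 86 weeks (adjusted p from 0.0531 to 0.0879). No other gene of the nephron factors and none of the paralogues, cofactors or receptor targets was called for age in kidney by edgeR or by DESeq2. An unadjusted p under 0.05, as 7.96% of all genes had, was found there for 6 of the 26 other factors, 3 of the 24 paralogues, 2 of the 12 cofactors and 4 of the 8 targets, with Ppargc1a at -0.27 (SE 0.08) and Pdk4, a brake on glucose oxidation, at -0.80 (SE 0.19), neither past the threshold. In left ventricle and muscle none of these lists held a call for age by either tool, and the unadjusted counts were 2, 0, 0 and 1 in ventricle, against 3.37% of all genes, and 2, 5, 2 and 4 in muscle, against 5.51%. Slc26a4 was the only call by edgeR among the segment and cell type markers for age in kidney, where 5 of 7 principal cell genes and all 6 leukocyte genes had an unadjusted p under 0.05, with medians of -0.259 and 0.507, against 0.0233 over all genes. The part of these in the members' values was not tested.

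Kidneys of male and female mice differed in 2 of the 8 genes, Hnf4a and Pax8, both higher in males. The share of all genes called between the sexes in kidney was 7.58%, and DESeq2 called 2 of the 8 as well. Hnf4a averaged 445 ± 62.8 CPM (SD, n = 4) in females and 606 ± 29.2 in males, 1.35 times as high (log2 0.43, SE 0.10, adjusted p = 0.0121 in edgeR). Pax8 averaged 45.5 ± 4.88 and 62.7 ± 6.93 CPM, also 1.35 times as high (log2 0.44, SE 0.09, adjusted p = 0.00912). For both genes the lowest male lay above the highest female, as for 10.2% of all genes in either direction, and the males were higher at each age.

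The 2 calls were close to the threshold. Without female 15 at 16.5 weeks neither passed (Hnf4a 0.42, adjusted p = 0.0511; Pax8 0.40, adjusted p = 0.0528 in edgeR), and without male 19 at 16.5 weeks Hnf4a did not (0.43, adjusted p = 0.0531). Leaving out female 11 at 86 weeks, the lowest kidney for both genes, gave 0.36 (adjusted p = 0.00319) for Hnf4a and 0.41 (adjusted p = 0.0170) for Pax8, and then Tfcp2l1 passed as well (-0.44, adjusted p = 0.0136). The 6 other genes did not pass with all 8 kidneys. Tfcp2l1 at -0.38 (SE 0.11, adjusted p = 0.0576 in edgeR) and Tfap2b at -0.27 (SE 0.09, adjusted p = 0.0928) came nearest, with lower values in males, and both passed when only genes of at least 1 CPM in 4 libraries were tested (adjusted p = 0.0209 and 0.0421). Under that filter, which tests fewer genes, 4261 genes were called in all, against 3380 in the main fit. Lhx1 (-0.21, SE 0.10), Emx1 (-0.16, SE 0.11), Pax2 (-0.09, SE 0.10) and Esrrg (0.12, SE 0.09) had smaller differences.

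**Figure D2:**
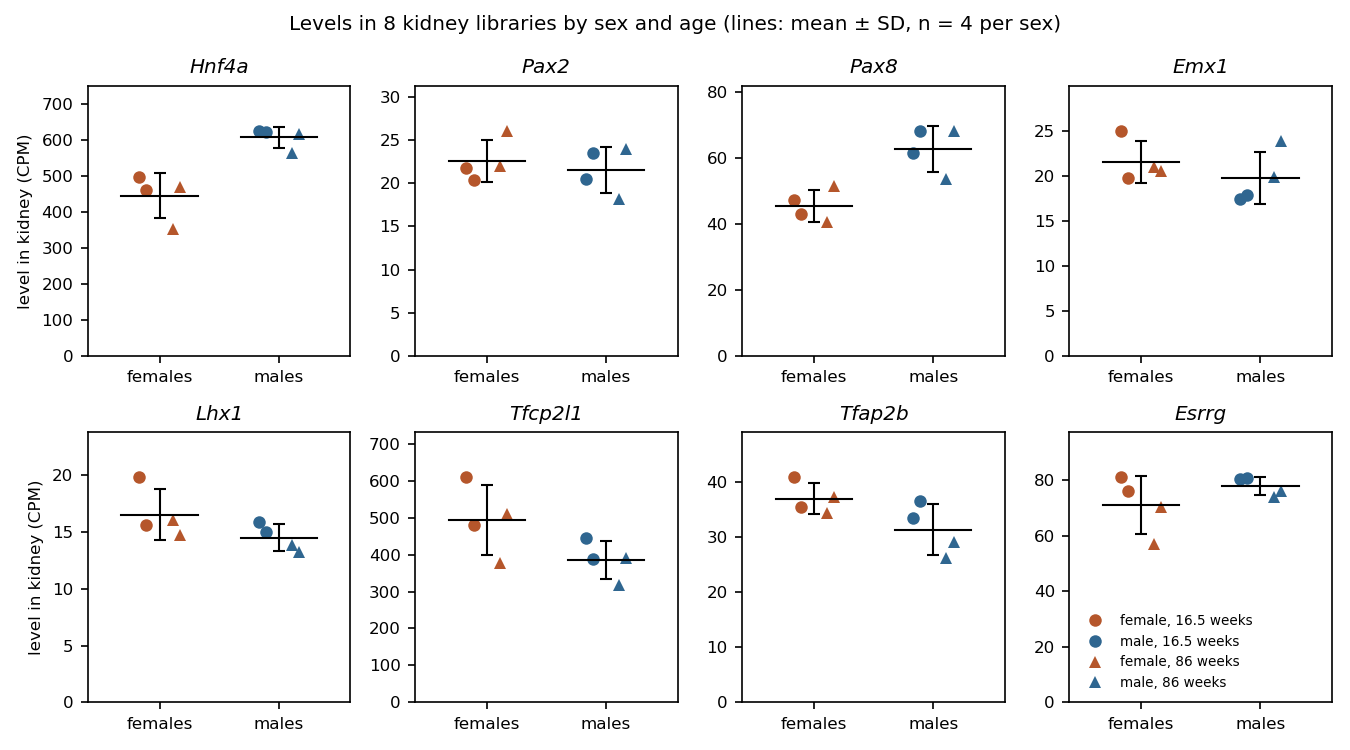
Kidney level of each of the 8 genes (CPM) in 4 females and 4 males, with age shown by the symbol and lines for the mean ± SD of each sex. For Hnf4a all males (563 to 624) lie above all females (353 to 496), and for Pax8 males (53.5 to 68.1) lie above females (40.5 to 51.6), while the sexes overlap for the 6 other genes.

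The other nephron factors divided between the sexes. Of the 26, 4 were higher and 10 lower in males, with a median of -0.335 against -0.0183 over all genes, of which 7.58% were called. Among those higher in males were Nr1h4, the bile acid receptor, at 47.2 ± 10.04 CPM in females and 113 ± 14.6 in males (log2 1.26, SE 0.14, adjusted p = 4.03e-05 in edgeR), the Hnf4a paralogue Hnf4g (0.56, SE 0.13) and Irx3 (0.44, SE 0.11). Lower in males were Sall1, a zinc finger factor of nephron progenitors, at 51.6 ± 6.12 in females and 28.0 ± 2.34 in males (-0.91, SE 0.09, adjusted p = 1.17e-05), Sim1 (-0.68, SE 0.10), Foxi1 (-0.77, SE 0.12), Pou3f3 (-0.66, SE 0.11) and Gata3 (-0.59, SE 0.09), a factor of the collecting duct. Among paralogues Hnf4g was the 1 of 24 called, and among cofactors Nrip1 the 1 of 12, lower in males (-0.43, SE 0.11). Both counts are near the share of all genes. Of the 8 receptor targets Cycs was higher (0.85, SE 0.09) and Pdk4 (-1.53, SE 0.20), Cpt1b and Acadm lower in males.

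Markers of nephron segments also moved with sex, and their part in the Hnf4a and Pax8 values was not tested. The summed proximal tubule level was 9970 to 14910 CPM in females and 12070 to 14280 in males, so the sexes overlapped, while 4 of its 10 genes were higher and 2 lower in males. Slc7a13, an amino acid transporter of the straight proximal tubule, averaged 1.21 ± 0.360 CPM in females and 518 ± 58.1 in males. The sums of the distal convoluted tubule (1661 to 2097 CPM in females, 1155 to 1457 in males) did not overlap. Those of the thick ascending limb (2548 to 3858, and 2151 to 3196), principal cells (147 to 174, and 113 to 163), intercalated cells (153 to 248, and 117 to 175) and podocytes (206 to 311, and 162 to 240) did. All 4 podocyte genes, 3 of 5 distal convoluted tubule genes and 3 of 6 intercalated cell genes were lower in males, 1 of 6 thick ascending limb genes was lower, and of 7 principal cell genes 1 was higher and 2 lower. The share of all genes called here was 7.58%. No marker was at 0 in any library.

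In skeletal muscle 1 of the 8 genes, Tfcp2l1, differed between the sexes, a comparison added after the values were seen. Females measured 7.20 to 13.4 CPM and males 31.5 to 49.5, so that every male lay above every female at both ages. The difference was 2.07 on the log2 scale (SE 0.15), 4.202 times as high in males, with an adjusted p of 2.14e-05 in edgeR's quasi-likelihood test. DESeq2 also called 1 of the 8. The share of all genes called in this comparison was 1.36%, and 5.99% of all genes had sexes that did not overlap. The call held under each alternative, and leaving out single mice gave 1.94 to 2.20. The 7 other genes did not pass, with differences from -0.29 (SE 0.23) for Esrrg to 0.39 (SE 0.32) for Hnf4a.

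Markers of the collecting duct gave no call by edgeR between the sexes in muscle, and single markers differed in either direction. The summed level of 6 intercalated cell genes was 7.27 to 8.57 CPM in females and 8.83 to 9.14 in males, which did not overlap. Atp6v1b1, a proton pump subunit of these cells, measured 0.924 to 1.31 CPM in females and 1.58 to 2.09 in males (log2 0.79, SE 0.20, adjusted p = 0.0929 in edgeR). The sum of 7 principal cell genes was 10.6 to 18.4 CPM in females and 7.23 to 12.03 in males. Aqp4, a water channel, made up most of that sum in females, with means of 8.64 and 4.32 CPM, while Aqp2, Scnn1b and Scnn1g had means of 0.850, 1.28 and 1.05 in females and 0.962, 1.71 and 1.22 in males. Avpr2 measured 0.320 to 0.694 CPM in females and 0.0650 to 0.250 in males. The part of these markers in the Tfcp2l1 value was not tested. The proximal tubule sum was 97.1 to 119 in females and 58.9 to 176 in males. Muscle fibre genes summed to 153000 to 163700 CPM in females and 112000 to 175300 in males, and adipocyte genes to 11.5 to 127 and 9.08 to 74.9. None of the 7 principal cell and 6 intercalated cell genes was called between the sexes in muscle by edgeR, while DESeq2 called 1 and 0. An unadjusted p under 0.05 was found for 3 and 2 of them, against 9.62% of all genes, and none was at 0. Among the other nephron factors Irx3 was the 1 of 26 called, against 1.36% of all genes (0.86 higher in males, adjusted p = 0.0216 in edgeR). The call was lost without any 1 of mice 14, 15 or 19 at 16.5 weeks or 11, 14 or 17 at 86 weeks (adjusted p from 0.0559 to 0.0895).

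**Figure D3:**
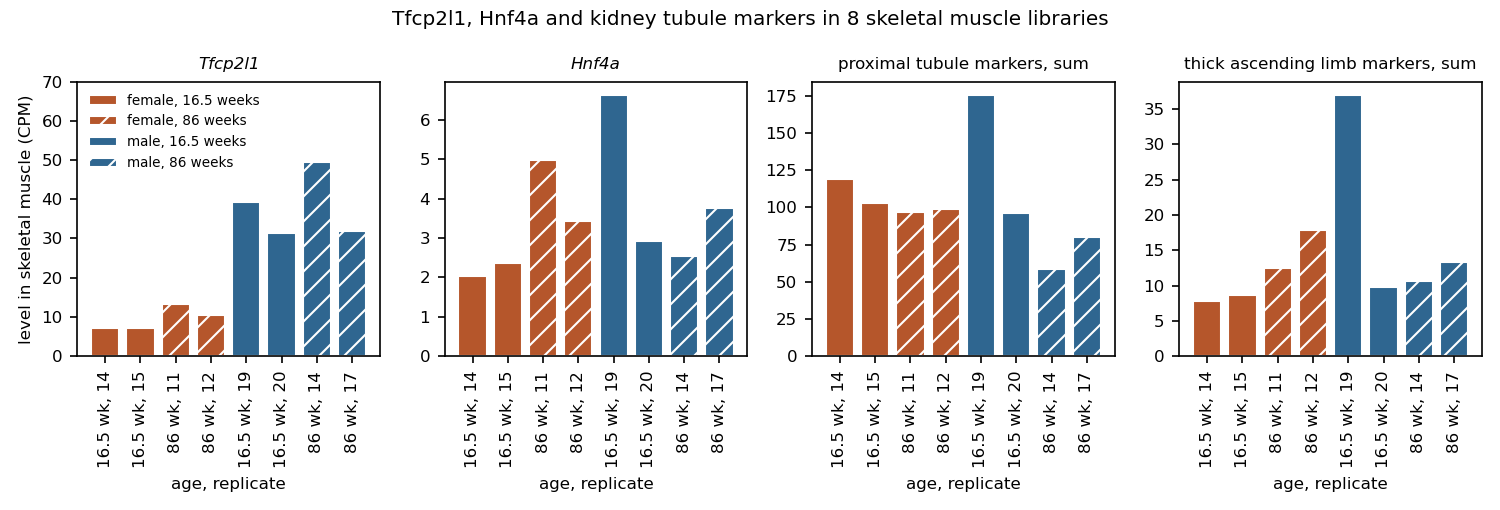
Bars give the level in each of the 8 skeletal muscle libraries (CPM), coloured by sex and hatched at 86 weeks, of Tfcp2l1, Hnf4a and the summed proximal tubule and thick ascending limb markers. Tfcp2l1 lies at 7.20 to 13.4 in females and 31.5 to 49.5 in males, and the highest Hnf4a (6.64) is in the library of male 19 at 16.5 weeks, which also has the highest of both sums. The proximal tubule sum includes Aqp1, at 19.6% of its kidney mean in muscle, with its other genes at 0.854% or less.

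In left ventricle 0 of the 8 genes passed between the sexes (0 by DESeq2), where 0.871% of all genes did. This comparison too was added after the values were seen. Emx1 had the 1 unadjusted p under 0.05, against 5.1% of all genes, with 1.42 to 1.75 CPM in females and 0.770 to 1.18 in males. The sexes did not overlap, as for 3.43% of all genes, and the difference was -0.63 (SE 0.22, adjusted p = 0.545 in edgeR). Tfcp2l1 differed by -0.01 (SE 0.17) in this tissue.

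A test of whether the sex difference itself varied between tissues, also added after the values were seen, called Tfcp2l1 alone among the 8 genes (adjusted p = 3.41e-07 in edgeR), against 1.99% of all genes. DESeq2 called 1 as well. The changes were 2.07 in muscle, -0.01 in left ventricle and -0.38 in kidney, and the call held under each alternative. For Hnf4a (adjusted p = 0.982) and Pax8 (0.596) the test gave no evidence that the kidney's sex difference was unlike that of the other tissues; their levels outside the kidney were a few CPM, so this does not show that the sex differences are alike. In the related lists Sall1 and Cycs passed this test.

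**Figure D4:**
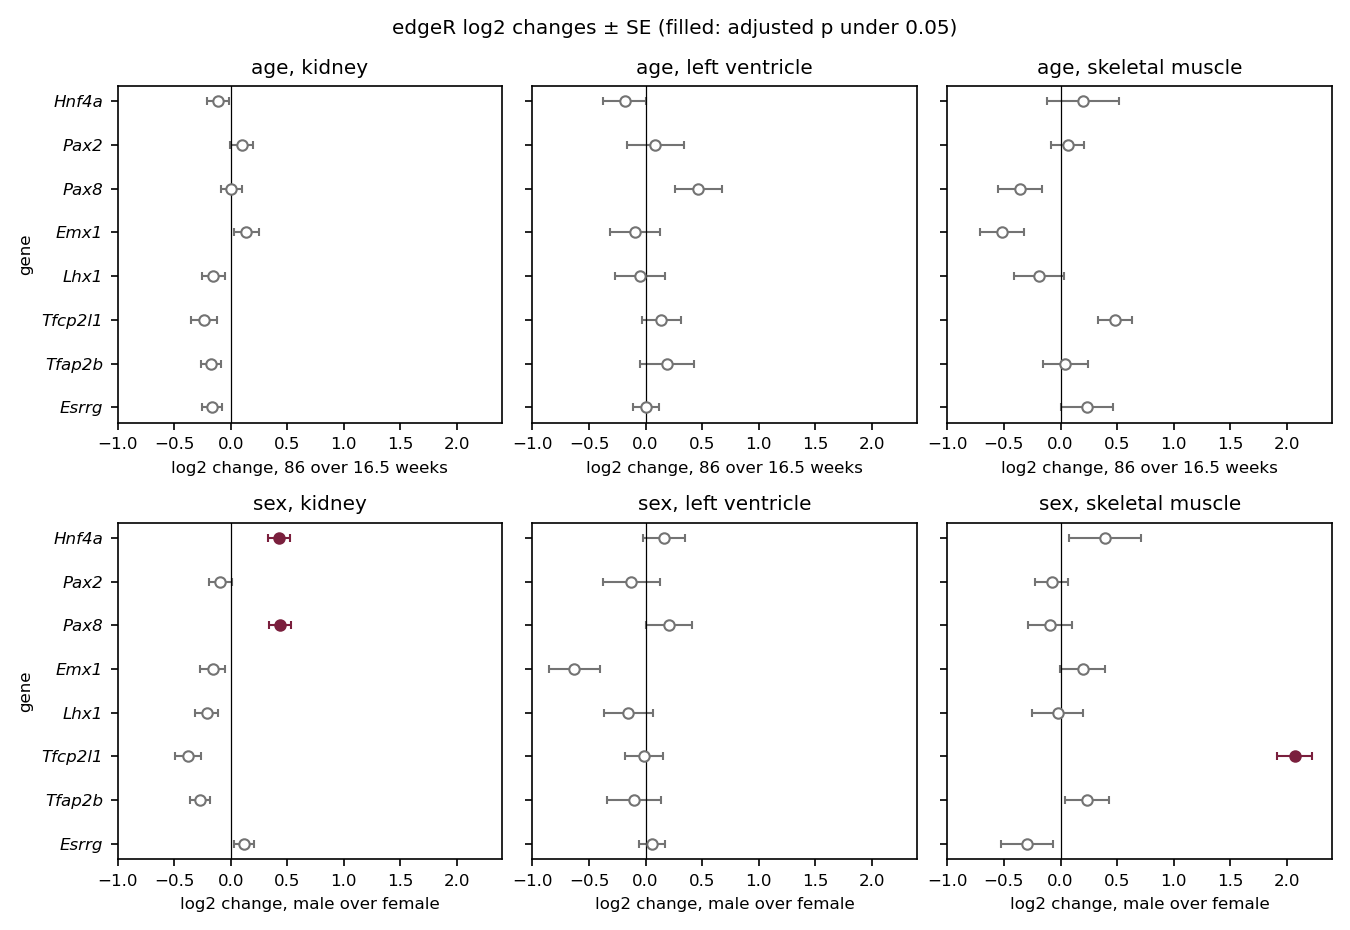
Log2 differences with their standard errors for the 8 genes, 86 against 16.5 weeks (upper row) and males against females (lower row), in kidney, left ventricle and skeletal muscle; filled points passed the threshold. No age difference passed, and the filled points are Hnf4a (0.43) and Pax8 (0.44) for sex in kidney and Tfcp2l1 (2.07) for sex in muscle.

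Other annotated genes overlap some of these loci, and whether the counting used strand is not given in the sources used here, so reads of such partners cannot be told apart with certainty. Hnf4aos, antisense to Hnf4a, averaged 4.61 ± 1.29 CPM in kidney (SD, n = 8), 0.384 in left ventricle and 0.556 in muscle. Gm13415, on the strand opposite to Pax8, averaged 2.48 ± 0.499 CPM in kidney, 1.76 ± 0.440 in left ventricle and 2.13 ± 0.471 in muscle. These last levels are close to those of Pax8 itself outside the kidney, 2.34 ± 0.622 and 2.85 ± 0.631 CPM. On the strand opposite to Pax2, 1700039E22Rik averaged 0.862 CPM in kidney, 0.803 in left ventricle and 1.02 in muscle. Pax2 itself ranged from 1.75 to 3.88 CPM in ventricle and from 3.26 to 4.12 in muscle. Gm38315, on the strand of Esrrg, averaged 3.26, 1.58 and 0.698 CPM, well below Esrrg in each tissue.

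The genes whose profiles over the 24 libraries were nearest to each member were found by the root mean square difference of log2 CPM after centring each gene, a description with no test. For Hnf4a they were Slc13a3, a dicarboxylate transporter of the proximal tubule (0.233), and Cyp4a31 (0.299). For Tfap2b they were Tmem72 (0.199, the smallest distance of all) and Dclk3 (0.223). For Esrrg they were Ppara (0.253), which averaged 57.3 CPM in kidney, 36.5 in left ventricle and 4.96 in muscle, and Paqr9 (0.303). Pax8 lay nearest to the endosomal chloride transporter Clcn5 (0.279) and to Lactb2 (0.317), Pax2 to Elmo3 (0.282) and Rhpn1 (0.284), Emx1 to Dlec1 (0.264) and Shank2 (0.28), and Lhx1 to Evpl (0.246) and Myo15b (0.249). Tfcp2l1 had no near neighbour on this scale: Npnt, a basement membrane protein, and Plau, the urokinase gene, were closest at 0.617 and 0.684, more than any distance of the other 7 genes.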

How the data were processed

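Gene-level counts from 24 libraries of total RNA were used as deposited; per the submitters' processing notes, reads were processed with STAR 2.7.6a and StringTie 2.1.1 on GRCm38.p6, and the counting method, its use of strand and the annotation release are not given in the sources used here. Of 55401 gene identifiers, 54349 matched GENCODE M21, which supplied exon lengths and positions. Levels are CPM (counts over effective library size, TMM over all libraries). Age and sex were fitted together in the 8 libraries of a tissue, and tissues and the interactions were fitted over 24 libraries, with the quasi-likelihood test of edgeR 4.0.16 in R 4.3.3 after filterByExpr, two-sided, with Benjamini-Hochberg adjustment over all genes tested and a threshold of 0.05. Alternatives were DESeq2 1.42.0, its size factors, no filter on low counts, at least 1 CPM in 4 libraries, no covariate, each mouse left out, and the mouse as replicate block. Sex in muscle and ventricle and sex by tissue were added after seeing the data. The scripts were tested on simulated data.

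The members and lists were chosen with earlier results of these data known. From each list the text names up to 4 genes past the threshold, smallest p first, and otherwise at most 2 genes as values, besides all 8 members and the 2 nearest genes of each; genes beyond this rule were named after their values were seen. Libraries of 1 mouse share its number, so tissues are paired by animal; the correlation of their deviations from the group means was -0.161 to 0.323. Mice are not paired between ages. The fewest counts of a member in a library were 60. Some results are not reported here.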

Additional observations from a re-analysis of the deposited data

Results flagged for a closer look

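Of 48 groups of 4 libraries (8 genes, 3 tissues, 2 ages), 2 held a library far from the others by Dixon's criterion, about what is met by chance in 1 of 20 groups. Tfap2b in skeletal muscle at 16.5 weeks measured 1.37 CPM in female 14 against 2.21 to 2.39 in the other 3 mice, a gap of 0.832 of the whole range. Esrrg in kidney at 16.5 weeks measured 76.0 CPM in female 15 against 80.7 to 81.0 in the others, a gap of 0.927 of a narrow range. The sex difference of Tfcp2l1 varied between tissues (adjusted p = 3.41e-07 in edgeR), with 2.07 in muscle, higher in 4 of 4 males, -0.01 in left ventricle and -0.38 in kidney.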

How the results depend on the processing

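Of 1144 recomputed values of the 8 genes, 1079 kept their direction and their side of the threshold, 5 lost a call, 14 gained one and 46 changed sign; all 46 were differences for age or sex that had passed under no setting. Between the sexes in kidney 4 of the 8 genes were called with at least 1 CPM in 4 libraries, and 0 to 3 with 1 mouse left out. Over all genes that filter gave 4261 calls there, against 3380 in the main fit. Between left ventricle and muscle 8 were called with at least 1 CPM in 4 libraries, and 5 with the mouse as replicate block, which added Pax2 (adjusted p = 0.0407 in edgeR) and changed no other call of the 8. Over all genes the filter of 1 CPM gave 12730 calls there, against 12236 in the main fit. Over all genes, the calls for age in kidney numbered 1 with no filter on low counts, 238 with DESeq2, 0 with no covariate and 19 to 69 with 1 mouse left out; in left ventricle 18 with no filter, 70 with DESeq2 and 24 to 117 with 1 mouse left out; and in muscle 0 with no filter, 90 with DESeq2, 1 with no covariate and 1 to 43 with 1 mouse left out. For sex in left ventricle they numbered 725 with no filter, 18 with at least 1 CPM in 4 libraries and 161 to 374 with 1 mouse left out, and in muscle 918, 297 and 345 to 718. For age by tissue they numbered 4 with DESeq2's size factors, 4 with no filter, 20 with at least 1 CPM in 4 libraries, 34 with DESeq2, 1 with the mouse as replicate block and 2 to 7 with 1 mouse left out, and for sex by tissue 1760 with at least 1 CPM in 4 libraries. The cause of these shifts was not tested.

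Signs turned for these log2 differences near 0. For age, Pax8 in kidney was -0.0230 with DESeq2's size factors, -0.023 with DESeq2 and -0.00529 with no covariate, and -0.0629 to 0.0792 with 1 mouse left out. Esrrg in left ventricle was -0.002002 with the size factors and -0.00196 with DESeq2, and -0.0751 to 0.0865 with 1 mouse left out, where Pax2 gave -0.15 to 0.32, Lhx1 -0.15 to 0.0329, Emx1 -0.19 to 0.0460 and Tfap2b -0.0397 to 0.36; in muscle Hnf4a gave -0.0319 to 0.63 and Tfap2b -0.12 to 0.16. For sex, Tfcp2l1 in left ventricle was 0.0266 with the size factors, 0.00737 with no filter and 0.0263 with DESeq2, and -0.12 to 0.15 with 1 mouse left out, where Tfap2b gave -0.33 to 0.0823, Esrrg -0.0080 to 0.14 and Pax2 -0.36 to 0.10; in muscle Lhx1 was 0.0221 with at least 1 CPM in 4 libraries and -0.25 to 0.12 with 1 mouse left out, where Hnf4a gave -0.0512 to 0.67 and Pax8 -0.26 to 0.0570. Outside the kidney most members lie at a few CPM, and with 4 mice per group small differences there were not detectable.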
